A study of Mus musculus with 2 samples.

Results

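Among cells grown out of mouse embryo and yolk sac explants, the mast cells with the most Tpsb2 and Mcpt4 RNA were examined as 1 population. Cells qualified as candidates when 1000 to 5000 genes were detected, at most 5% of their unique molecular identifiers (UMIs, 1 per captured RNA molecule) came from mitochondrial genes, and Cpa3 reached at least 40 and Mcpt1 stayed under 20 UMIs per 10000 UMIs of the cell. The 20% of candidates with the highest sum of Tpsb2 and Mcpt4 UMIs per 10000, ranked across both libraries, were chosen as members. They numbered 798 of 3992 candidates and of 6541 barcodes in the table: 385 of 2077 candidates from embryo explants and 413 of 1915 from yolk sac explants.

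The study asked whether blood stem cell activity originates in the embryo proper or in the yolk sac, by culturing each alone from around the onset of circulation. Both tissues came from C57/BL6 mouse embryos at embryonic day 8.5, Theiler stage 12, with 5 to 7 somite pairs. They were grown at an air-liquid interface with recombinant murine SCF, IL-3 and FLT3 Ligand, each at 100 ng/ml, for 10 days before the sort. Embryo explants are called Em-Ex and yolk sac explants YS-Ex, and from each, cells carrying CD31, CD45 and c-Kit but not CD41 were sorted, of which 8600 were loaded for droplet sequencing of RNA. All members therefore shared the culture conditions, the cytokines and the sort, though not 1 culture, and c-Kit, the SCF receptor, was a protein that every sorted cell had to carry. Neither library was repeated, so no test between groups was possible, and every interval given here covers the counting of UMIs or cells and not the variation between cultures.

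Mast cells are tissue granulocytes that store proteases, histamine and heparin in granules and release them when antigen cross-links IgE on their surface or when basic peptides reach the receptor Mrgprb2. In the mouse, connective-tissue-type mast cells of skin and serosal cavities hold the chymases Mcpt4 and Cma1, the tryptases Tpsb2 and Tpsab1 and the carboxypeptidase Cpa3, bound to heparin. Mucosal-type mast cells of epithelia hold instead the chymases Mcpt1 and Mcpt2 with chondroitin sulfate.

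The cells used here were comparable in depth between the libraries, but members were shallower than the cells they were compared with. Em-Ex held 3504 barcodes with 48630888 UMIs and YS-Ex held 3037 with 34566242 UMIs. Members had a median of 9135 UMIs and 2204 genes in Em-Ex and of 9794 UMIs and 2457 genes in YS-Ex, against 12150 UMIs and 2687 genes, and 12630 UMIs and 2902 genes, in the other candidates. When every cell was thinned to 3000 UMIs, the median was 1092 genes in Em-Ex members and 1150 in YS-Ex members, against 1138 and 1181 in the other candidates. Barcodes found in both libraries numbered 35 per library, and 1 Em-Ex and 5 YS-Ex members carried such a barcode.

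The ranking had no gap at the limit. The 5 lowest members had 175.3 to 175.6 Tpsb2 and Mcpt4 UMIs per 10000 and the 5 highest cells outside had 174.9 to 175.1. The median member had 232 per 10000 in Em-Ex and 231 in YS-Ex, the highest 652 and 765. The other candidates had medians of 47.5 and 58.3, and 41 Em-Ex and 24 YS-Ex candidates held no UMI of either gene. On this score members are the upper end of a continuous range, and whether other genes set them apart as a cluster was not tested. They made up 18.5% of Em-Ex candidates (Clopper-Pearson 95% interval 16.9 to 20.3) and 21.6% of YS-Ex candidates (19.7 to 23.5). This order rested on the ranking gene, since ranking by Mcpt4 alone gave 22.5% in Em-Ex and 17.3% in YS-Ex.

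**Figure D1:**
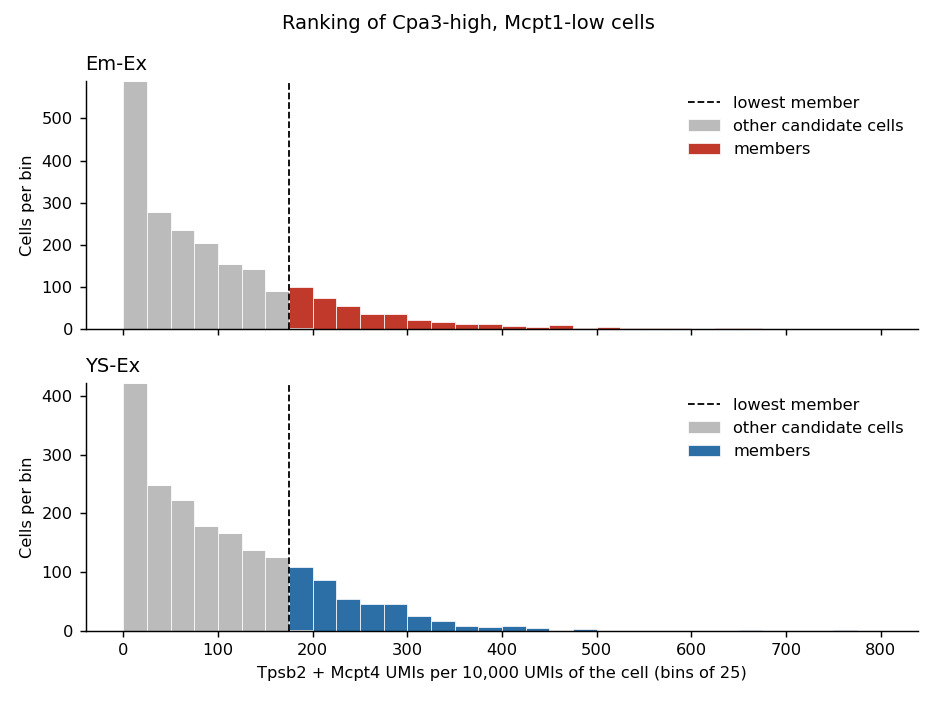
Number of candidate cells (vertical axis, cells per bin of 25) by Tpsb2 plus Mcpt4 UMIs per 10000 UMIs of the cell (horizontal axis) in Em-Ex above and YS-Ex below, with members coloured and other candidates grey. The bins on either side of the limit (dashed line) are of similar height in each library, and no gap separates members from the rest.

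Tpsb2 carried most of the score and was present in every member. Tpsb2, on chromosome 17, encodes a tryptase. Members held a median of 198 Tpsb2 UMIs per cell in Em-Ex and 203 in YS-Ex, and pooled levels were 22634 and 21537 counts per 1000000 UMIs (CPM). Mcpt4 supplied 11.2% of the 2 genes' UMIs in Em-Ex members and 12.2% in YS-Ex members. It was uneven from cell to cell: the median was 20 UMIs in Em-Ex and 7 in YS-Ex, 1 YS-Ex member held 329, and 75 Em-Ex members (19.5%) and 130 YS-Ex members (31.5%) had none. Within the members the 2 genes ran in opposite directions (Spearman correlation -0.23 over 385 cells and -0.32 over 413 cells), which a limit on their sum favours. In the other candidates, which the limit trims only at the top, the correlation was 0.23 and 0.18. In GRCm38, Tpsb2 lies on the plus strand at chr17:25366305-25369098, Mcpt4 on the minus strand at chr14:56059629-56062313, Cma1 on the minus strand at chr14:55941451-55944675 and Mrgprb2 on the minus strand at chr7:48550965-48558086. The Tpsb2 and Mcpt4 values are levels of the genes that chose the cells and describe the choice.

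Among the genes outside the choice, the proteases Cma1, Tpsab1 and Cma2 and the receptor Mrgprb2 were higher in members in both libraries. Of 6558 genes with UMIs in both libraries and a mean level of at least 10 CPM over the candidates, 132 were at least 1.5-fold higher in members than in the other candidates in both libraries (2.01%) and 463 were at least 1.5-fold lower in both (7.06%). Tpsb2 and Mcpt4 are among the 132. Taken 1 library at a time, 230 genes were higher (3.51%) and 837 lower (12.8%) in Em-Ex, and 235 were higher (3.58%) and 672 lower (10.2%) in YS-Ex. No gene was 1.5-fold higher in 1 library and 1.5-fold lower in the other. The median gene had a log2 ratio of -0.13 in Em-Ex and -0.10 in YS-Ex, and with ratios centred on it the counts were 208 higher and 321 lower. Ranking by Mcpt4 alone gave 54 higher and 174 lower, of which 40 and 81 were among those above. The label was set beside 13 listed connective-tissue mast cell genes. That list was chosen with earlier results of these data known and is no independent check. Of the 13 genes, 9 were measured well enough. Of these, 4 were higher in both libraries and none was lower, with median log2 ratios of 0.48 and 0.53. Tpsg1, a membrane-bound tryptase, had ratios of 0.768 and 0.695, and Ndst2, an enzyme of heparin synthesis, of 1.33 and 1.28. Beside the genes of the choice the label thus rests on Cma1, Tpsab1 and Mrgprb2 and not on the whole list, since Cma2 was as high in the Mcpt1-high mast cells described later.

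Mrgprb2, the receptor for basic secretagogues, had the highest ratio of the 6558 genes. It reached 54.9 CPM in Em-Ex members against 7.25 CPM in the other candidates, 7.57-fold (95% counting interval 6.14 to 9.35), and 42.5 CPM in YS-Ex members against 3.42 CPM, 12.4-fold (9.38 to 16.6). At least 1 Mrgprb2 UMI was seen in 25.2% of Em-Ex members and 19.6% of YS-Ex members, against 6.03% and 3.26% of the other candidates. Members were the group with the higher share although they were the shallower cells. In cells with under 5 Cpa3 UMIs per 10000, which should lack the receptor, the share was 0.186% of 538 cells in Em-Ex and 2.5% of 40 cells in YS-Ex, at median depths of 19888 and 13767 UMIs. Thinned to 3000 UMIs per cell, the shares were 13.2% and 11.9% of members and 2.90% and 1.46% of the other candidates. The 10 members with the most Mrgprb2 held 26.9% of its UMIs in Em-Ex and 34.8% in YS-Ex, so the RNA was spread over many members.

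Cma1, the chymase of connective-tissue mast cells, was the most abundant of these protease RNAs. Members held 33608 CPM in Em-Ex against 14626 CPM (2.30-fold, 2.28 to 2.31) and 29059 CPM in YS-Ex against 12386 CPM (2.35-fold, 2.33 to 2.36). At least 1 UMI was found in every member and in 99.6% and 100% of the other candidates, but also in 96.7% and 92.5% of cells with under 5 Cpa3 UMIs per 10000, so presence carries no information and the amount differed. Tpsab1, a second tryptase gene on chromosome 17, stood at 569 CPM in Em-Ex members against 225 CPM (2.53-fold, 2.41 to 2.66) and at 296 CPM in YS-Ex members against 66.6 CPM (4.44-fold, 4.11 to 4.80). Cma2, a chymase-like gene on chromosome 14 like Cma1, stood at 32.5 against 18.0 CPM in Em-Ex (1.80-fold) and at 44.4 against 11.6 CPM in YS-Ex (3.84-fold), but ranking by Tpsb2 alone left a log2 ratio of 0.39 in Em-Ex. Cpa3, which the choice used, was 1.54-fold higher in Em-Ex members and 1.38-fold in YS-Ex members. The transcripts of Tpsb2 and Tpsab1 share identical runs of up to 39 bases and those of Mcpt4 and Mcpt1 up to 46 bases, so reads lying within such runs cannot be assigned to 1 of the genes. Together Cpa3, Cma1, Tpsb2, Mcpt4 and Tpsab1 supplied 7.83% of all UMIs of Em-Ex members and 7.66% of YS-Ex members, against 3.23% and 3.50% in the other candidates.

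Mcpt4, Cma1 and Mrgprb2 were all higher in members, and the 250 bases before each gene's start are shown because each holds 1 copy of a GATA motif, the letters that the mast cell factors Gata1 and Gata2 recognise. The letters AGATAA were searched on both strands of each window, as was the form ending in G, written AGATAG. The forms that open with T were searched likewise, namely TGATAA with a closing A, and with a closing G the form TGATAG. Matches are in capitals. Sequences are from RefSeq, build GRCm38.p6, and read 5′ to 3′ on the gene's strand, which is the minus strand for all 3; 3 of the 4 genes looked for were found in the RefSeq table, and the promoter of Tpsb2 was not analysed here. The windows are chr14:56062311-56062560 for Mcpt4, chr14:55944676-55944925 for Cma1 and chr7:48558087-48558336 for Mrgprb2. Distances count from the RefSeq start, which for Mcpt4 lies 3 bases inside the GENCODE gene given above.
Mcpt4: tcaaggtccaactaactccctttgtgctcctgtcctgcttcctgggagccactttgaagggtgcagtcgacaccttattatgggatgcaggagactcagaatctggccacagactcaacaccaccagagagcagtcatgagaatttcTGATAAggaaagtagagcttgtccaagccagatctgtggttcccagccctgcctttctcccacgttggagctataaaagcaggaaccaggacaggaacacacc
Cma1: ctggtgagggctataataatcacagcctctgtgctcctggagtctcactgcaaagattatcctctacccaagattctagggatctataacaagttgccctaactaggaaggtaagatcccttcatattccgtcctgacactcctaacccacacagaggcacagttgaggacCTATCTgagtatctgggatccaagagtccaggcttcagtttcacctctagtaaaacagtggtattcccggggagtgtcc
Mrgprb2: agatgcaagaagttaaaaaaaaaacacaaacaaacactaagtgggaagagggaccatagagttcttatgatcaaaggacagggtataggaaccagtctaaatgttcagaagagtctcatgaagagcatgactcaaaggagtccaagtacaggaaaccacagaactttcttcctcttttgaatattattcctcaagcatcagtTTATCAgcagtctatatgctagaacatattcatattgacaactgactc
The motif begins 103 bases before the start of Mcpt4, 79 before Cma1 and 48 before Mrgprb2. Of all 32851 promoters in the table, 26.5% hold at least 1 such motif in the same window, so a single match in each is a description of these sequences and shows no binding. Gata2 RNA was at 583 CPM in members of Em-Ex and at 787 in those of YS-Ex, with log2 ratios to the other candidates of 0.09 and 0.14, and Gata1 had -0.16 and 0.04.

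**Figure D2:**
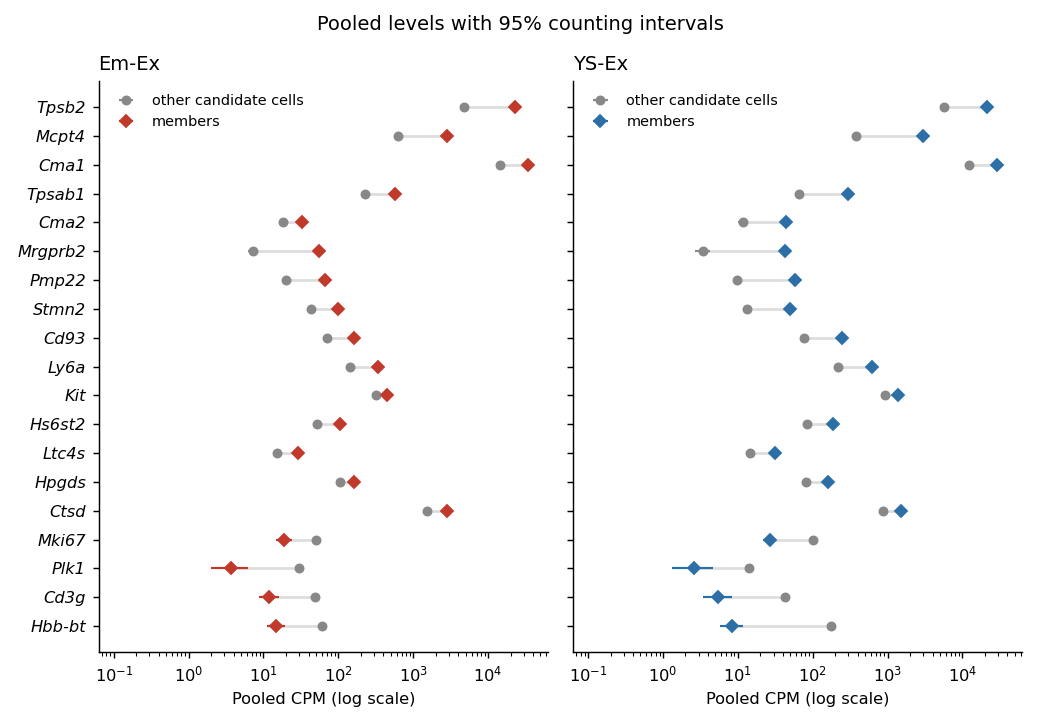
Pooled level in CPM (log axis) of 19 genes in members (diamonds, coloured) and other candidates (circles, grey) of Em-Ex, left, and YS-Ex, right, with 95% counting intervals that are often smaller than the symbol. Proteases, Mrgprb2 and granule genes lie to the right in members, with Cma1 at 33608, Tpsb2 at 22634 and Mrgprb2 at 54.9 CPM in Em-Ex, and Mki67, Plk1, Cd3g and Hbb-bt lie to the left.

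Pmp22, Stmn2 and Cd93, given with the definition of these cells and picked from earlier results on the same libraries, are no independent support for it. Pmp22, a membrane protein best known from myelin, stood at 67.0 CPM in Em-Ex members against 19.8 CPM (3.38-fold) and at 58.0 CPM in YS-Ex members against 9.88 CPM (5.87-fold). Stmn2, a microtubule-destabilising stathmin, stood at 98.5 against 43.4 CPM in Em-Ex (2.27-fold) and at 49.2 against 13.2 CPM in YS-Ex (3.74-fold). Cd93, a lectin-like membrane receptor of endothelium and early progenitors, stood at 160 against 70.7 CPM in Em-Ex (2.27-fold) and at 247 against 76.8 CPM in YS-Ex (3.22-fold). The 3 genes differed in how members shared them. Cd93 was seen in 66.2% of Em-Ex and 78.0% of YS-Ex members, Pmp22 in 31.7% and 32.7%, and Stmn2 in 17.9% and 12.8%. The 10 members with the most Stmn2 held 44.2% of its UMIs in Em-Ex and 44.7% in YS-Ex, against 14.8% and 12.4% for Cd93. Cells with under 5 Cpa3 UMIs per 10000 had Cd93 in 48.1% and 35.0%, Pmp22 in 5.39% and 12.5% and Stmn2 in 0.558% and 0% (0 of 40 cells). Thinned to 3000 UMIs, members had Cd93 in 35.6% and 45.5% against 12.5% and 22.5% of those cells. Pmp22 was then in 15.3% and 12.8% of members, against 3.53% of the Em-Ex cells with little Cpa3 and 4 of the 40 YS-Ex ones, where the 95% intervals overlapped. Stmn2 was in 12.5% and 8.96% of members, against 0.372% and 0 of 40, and the YS-Ex intervals (6.39 to 12.1 and 0 to 8.81) overlapped here too.

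The remaining genes with the highest ratios in both libraries were of various kinds. Ly6a, the Sca-1 antigen of stem and progenitor cells, stood at 335 against 143 CPM in Em-Ex (2.34-fold) and at 616 against 215 CPM in YS-Ex (2.86-fold). Pilra, an inhibitory immune receptor, stood at 163 against 63.3 CPM in Em-Ex (2.58-fold) and at 89.5 against 23.1 CPM in YS-Ex (3.88-fold). Cd33, a sialic acid-binding receptor of myeloid cells, stood at 45.7 against 17.6 CPM in Em-Ex (2.59-fold) and at 52.1 against 17.6 CPM in YS-Ex (2.96-fold). Members were therefore higher in the RNA of these 3 surface proteins in each library, and the proteins were not measured. Rprm, an inhibitor of cell division, was 2.70-fold and 2.80-fold higher, Kcne3, a potassium channel subunit, 2.35-fold and 2.70-fold, Stard13 2.57-fold and 3.17-fold, and Hsd11b1, which regenerates active glucocorticoid, 3.28-fold and 2.34-fold. With Mcpt4 alone as the ranking gene the log2 ratio of Rprm was 0.52 in Em-Ex and that of Hsd11b1 0.34 in YS-Ex. Cd68, a lysosomal protein abundant in macrophages, was 2.61-fold and 2.88-fold higher, and 0.56 on the log2 scale in Em-Ex among weakly cycling cells alone. Ccl2, a monocyte-attracting chemokine, was 4.23-fold and 2.89-fold higher, but 10 members held 73.4% of its UMIs in Em-Ex and 67.2% in YS-Ex. Gm9758, a predicted gene, was 3.79-fold and 4.13-fold higher, with 81.6% and 95.6% of its UMIs in 10 members, and its log2 ratio in YS-Ex was -0.16 among cells of middle depth.

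Of 20 mast cell identity genes measured, 3 were higher in both libraries and none lower, with median log2 ratios of 0.37 and 0.45. Among all genes, for this list and those that follow, 2.01% were higher and 7.06% lower, with medians of -0.13 and -0.10. The 3 were Cd33, Lat2, an adaptor of IgE receptor signalling (537 against 310 CPM, 1.73-fold, and 424 against 226 CPM, 1.88-fold), and Il3ra, the IL-3 receptor alpha chain (1.69-fold and 1.61-fold). Kit stood at 448 against 323 CPM in Em-Ex (1.39-fold, 1.32 to 1.46) and at 1358 against 916 CPM in YS-Ex (1.48-fold, 1.44 to 1.53), under the 1.5-fold line in both. Fcer1g, the signalling chain of the IgE receptor, was 1.46-fold and 1.41-fold higher. Of the other proteins of the sort, Ptprc (CD45) and Pecam1 (CD31) had ratios of 1.10 and 0.917 in Em-Ex and of 1.04 and 1.09 in YS-Ex. Itga2b (CD41), against which the cells were sorted, was low but 1.81-fold and 1.83-fold higher in members, at 32.2 against 17.8 CPM and 23.4 against 12.8 CPM, and its log2 ratio was -0.16 in Em-Ex when Mcpt4 alone ranked the cells.

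Of the granule storage, heparin and lipid mediator genes most did not pass 1.5-fold in both libraries. Of 25 genes of histamine, serotonin and granule storage, 3 were higher and none lower (median log2 ratios 0.36 and 0.35). Among them were Ctsd, a lysosomal protease, at 2851 against 1544 CPM in Em-Ex (1.85-fold) and 1516 against 877 CPM in YS-Ex (1.73-fold), and Dpp7, a lysosomal peptidase, 1.68-fold higher in Em-Ex and at the 1.5-fold line in YS-Ex. Slc18a2, which loads monoamines into granules, was 1.43-fold and 1.44-fold higher. Of 19 heparin and chondroitin sulfate genes, Hs6st2, a heparan sulfate sulfotransferase, alone passed 1.5-fold, at 105 against 52.1 CPM in Em-Ex (2.02-fold) and 185 against 83.6 CPM in YS-Ex (2.22-fold), and none was lower (median log2 ratios 0.05 and 0.16), beside 2.01% higher among all genes. Srgn, the granule proteoglycan core, was 1.39-fold and 1.28-fold higher. Of 9 leukotriene and prostaglandin genes, 2 were higher and none lower: Ltc4s, which makes leukotriene C4 (1.90-fold and 2.18-fold), and Hpgds, which makes prostaglandin D2 (1.56-fold and 1.98-fold). Summed over the leukotriene and prostaglandin list, the Mcpt1-high mast cells described later held more than members. The sums were 2214.5 against 1520.7 CPM in Em-Ex and 2268.0 against 1231.5 CPM in YS-Ex. Of 24 genes of IgE receptor signalling, 1 was higher (Lat2, named above) and none lower.

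Of 24 lineage transcription factors measured, none was 1.5-fold higher or lower in both libraries, and the median log2 ratios were 0.11 and 0.06. Mitf, a central mast cell factor, had 0.31 and 0.27, and Id2, an inhibitor of basic helix-loop-helix factors, 0.32 and 0.48. Of 24 unfolded protein response and secretion genes none passed in either direction, with medians of -0.25 and -0.16 beside -0.13 and -0.10 for all genes. The endoplasmic reticulum chaperones Hsp90b1 (0.590-fold and 0.668-fold) and Calr (0.652-fold and 0.671-fold) were the lowest of them in YS-Ex and among the lowest in Em-Ex. Of 21 genes of cytokine receptors and their signalling, Il3ra and Bcl2, an inhibitor of apoptosis, were higher (Bcl2 1.63-fold and 1.57-fold) and Myc was lower (0.592-fold and 0.383-fold). With Mcpt4 alone as ranking gene the log2 ratio was -0.13 for Il3ra in YS-Ex and -0.15 for Bcl2 in Em-Ex. Of 14 cytokines and chemokines 3 were higher and none lower, namely Ccl2, Ccl1 (1.82-fold and 1.93-fold) and Ccl3 (1.68-fold and 1.66-fold). Few members carried them: 10 members held 71.4% of the 28 Ccl1 UMIs in YS-Ex, and 49.9% and 60.4% of the Ccl3 UMIs in Em-Ex and YS-Ex. The Ccl1 log2 ratio in YS-Ex was -0.43 with Mcpt4 alone and -0.063 among cells of middle depth. Of 21 immediate-early genes Atf3 was higher (1.74-fold and 2.77-fold) and Btg2 and Myc were lower (Btg2 0.396-fold and 0.200-fold).

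Cell cycle genes were lower in members than in the other candidates, more widely than any other list. All 27 measured genes of the G2/M list were at least 1.5-fold lower in both libraries, with median log2 ratios of -1.62 and -1.62, and 21 of 24 S phase genes were, with medians of -1.12 and -1.25. None of either list was higher. Summed over the list, G2/M genes gave 798 CPM in Em-Ex members against 2328 CPM (0.343-fold, 0.331 to 0.356) and 655 CPM in YS-Ex members against 1873 CPM (0.350-fold, 0.336 to 0.363). Summed S phase genes gave 786 against 1479 CPM and 586 against 1117 CPM. Plk1, a kinase of mitosis, had the lowest ratio of all genes in Em-Ex, 3.70 against 29.8 CPM in Em-Ex (0.124-fold) and 2.63 against 14.2 CPM in YS-Ex (0.185-fold), from 14 and 11 UMIs in members. Ccna2, the S and G2 phase cyclin, was 0.208-fold and 0.274-fold, Birc5, which encodes survivin, 0.293-fold and 0.302-fold, and Rrm2, a subunit that makes deoxynucleotides, 0.308-fold and 0.259-fold. These directions depended on the ranking gene in YS-Ex, where Mcpt4 alone gave log2 ratios of 0.067 for Rrm2, 0.014 for Birc5 and 0.062 for Hmmr, a spindle protein. Some also changed among weakly cycling cells, chosen by their few S and G2/M UMIs. There Em-Ex gave 0.45 for Hells, 0.41 for Rrm2 and 0.23 for Birc5, from 5, 7 and 11 member UMIs. YS-Ex gave 0.89 for Mcm7 of the S phase list and 0.11 for Birc5, from 11 and 6 member UMIs. Hells, Cdca7, Shcbp1, Casc5, Kif15, Hist1h2ap and 2810417H13Rik, of which Hells encodes a chromatin remodeller of dividing cells, Kif15 a spindle motor and Hist1h2ap a histone, also were among the 15 lowest genes, between 0.153-fold and 0.286-fold.

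The share of cells with a UMI of Mki67 or Top2a, both markers of dividing cells, was 15.3% in Em-Ex members (11.9 to 19.3) against 33.2% of the other candidates (31.0 to 35.5), and 21.5% in YS-Ex members (17.7 to 25.8) against 35.9% (33.5 to 38.4). Members were shallower, so the shares were also taken at 3000 UMIs per cell: 8.31% against 16.4% in Em-Ex and 7.99% against 18.5% in YS-Ex. The intervals of members and other candidates did not overlap at either depth. In cells with under 5 Cpa3 UMIs per 10000 the unthinned shares were 400 of 538 and 30 of 40 cells. Of Em-Ex members 63.9%, and of YS-Ex members 76.3%, had fewer S and G2/M UMIs per 10000 than the median candidate, against 37.1% and 53.7% of the other candidates. When only those cells were ranked anew, 84 genes were higher and 111 lower in both libraries, and 56 of the 132 and 72 of the 463 genes were shared with the counts above. Restricted to cells of middle depth, 109 genes were higher and 222 lower.

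Of genes around the cell cycle, Cdk6, a G1 kinase, was lower in both libraries (0.519-fold and 0.278-fold), 1 of 9 measured CDK inhibitors and G1 cyclins, and none was higher. Cdkn1a, the inhibitor p21, was 1.34-fold and 1.16-fold higher. Of 19 glycolysis and hypoxia genes Tpi1 was lower (0.663-fold and 0.619-fold), and of 21 cholesterol and fatty acid genes Dhcr7 was lower (0.596-fold and 0.587-fold), with none higher in either list. Both lay near the 1.5-fold line. Of 82 ribosomal protein genes 2 were lower and none higher, and none of 13 mitochondrially encoded genes passed. Of 24 cytoskeleton and membrane genes Pmp22, Stmn2 and S100a6 were higher and Stmn1 (0.544-fold and 0.468-fold), a stathmin of dividing cells, Actg1, Anxa2 (0.597-fold and 0.198-fold) and S100a4 were lower. Among weakly cycling cells alone the log2 ratio of Stmn1 was 0.014 in Em-Ex and 0.063 in YS-Ex, from 182 and 180 member UMIs. Of 16 integrin and adhesion genes Itga2b was higher and Itga4, the alpha 4 integrin chain, lower (0.506-fold and 0.262-fold). Of 12 antigen presentation genes the immunoproteasome subunits Psmb8 and Psmb9 were lower and none was higher.

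**Figure D3:**
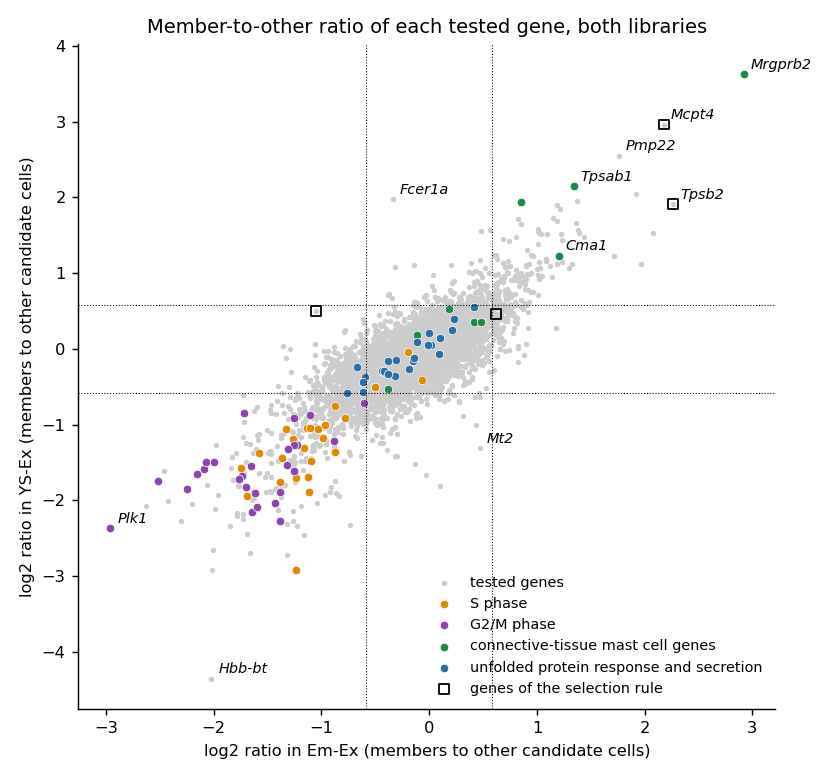
log2 ratio of members to other candidates for the 6558 measured genes, Em-Ex on the horizontal and YS-Ex on the vertical axis, with 4 gene lists coloured, the 4 genes of the rule boxed and dotted lines at 1.5-fold. G2/M genes lie at the lower left (median -1.62 in both libraries), 4 of 9 connective-tissue mast cell genes at the upper right, and Fcer1a and Mt2 lie off the diagonal.

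Members were compared with markers of other cell types the culture or the sort could hold. Of 3 erythroid genes measured, Hbb-bt and Hba-a1, both globins, were lower in both libraries and none was higher, while Car2, a carbonic anhydrase, had ratios of 0.389 and 1.02. Hbb-bt stood at 14.8 against 60.7 CPM in Em-Ex (0.243-fold) and at 8.36 against 173 CPM in YS-Ex (0.0482-fold). The 10 listed erythroid genes in the table summed to 69.4 against 167 CPM in Em-Ex and to 48.2 against 279 CPM in YS-Ex. Hbb-bs, another globin below the minimum level, stood at 8.71 against 6.10 CPM and at 4.78 against 3.42 CPM, and Epor, the erythropoietin receptor, had ratios of 0.954 and 1.62. Alas2 and Car1 were at 0 in members of both libraries, but they reached at most 2.51 CPM in the other candidates, and Alas2 was at 0 in those of YS-Ex too. Of 3 lymphoid genes measured, Cd3g, a T cell receptor complex chain, and Nkg7, a cytotoxic granule protein, were lower (0.245-fold and 0.129-fold, and 0.246-fold and 0.157-fold), and Il7r, the IL-7 receptor, was higher (1.76-fold and 3.28-fold). The 6 listed lymphoid genes in the table summed to 40.7 against 98.5 CPM and to 49.9 against 129 CPM. The part of cells or RNA of these types in the difference was not tested.

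Macrophage, endothelial, megakaryocyte and stem cell lists each held 1 gene that was higher in both libraries and none lower: Cd68 of 5, Cd93 of 2, Itga2b of 3 and Ly6a of 5 measured. Other genes of these lists did not pass in both libraries. Among the macrophage genes Lyz2, lysozyme, had ratios of 0.989 and 0.997, and Mrc1 was at 0 in YS-Ex members and under 1 CPM in the other candidates. In the megakaryocyte list Pf4, a platelet chemokine, stood at 13.7 against 15.2 CPM in Em-Ex (0.902-fold) and at 21.3 against 9.88 CPM in YS-Ex (2.15-fold), and Cd9, a tetraspanin, was 1.29-fold and 1.33-fold. In the endothelial list Egfl7 was 0.730-fold and 0.499-fold, and Plvap was at 0 in members of both libraries, as in the other YS-Ex candidates. In the stem cell list Mecom, Hoxa9 and Hoxa5 were at 0 in members of both libraries, but they were also at 0 in the other YS-Ex candidates and under 1 CPM in the other Em-Ex candidates, so these zeros carry no information on members. No neutrophil progenitor or stromal gene was high enough to be measured. The 6 neutrophil genes in the table summed to 9.50 and 8.60 CPM in members of the 2 libraries, against 15.9 and 6.99 CPM in the other candidates. The 6 stromal genes summed to 3.70 CPM in Em-Ex members, with all 6 at 0 in YS-Ex members, against 6.58 and 12.4 CPM. Of these, Col3a1, Dcn, Acta2 and Actc1 were at 0 in the other YS-Ex candidates too. Of 8 basophil genes Ccl3 was higher and Gzmb, granzyme B, lower (0.569-fold and 0.504-fold). Among weakly cycling cells alone the log2 ratio of Gzmb was 0.44 in Em-Ex, from 279 member UMIs. Mcpt8, the basophil protease, had log2 ratios of -0.03 and 0.26.

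The mast cells with at least 20 Mcpt1 UMIs per 10000, 123 in Em-Ex and 31 in YS-Ex, were set beside the members as a second group of mast cells. Mcpt1 separates the groups by choice. Mcpt2, the second mucosal chymase and no part of the choice, stood at 319 and 298 CPM in members and at 7969 and 7809 CPM in the Mcpt1-high cells. Against those cells members held more Cma1 (33608 against 7024 CPM in Em-Ex, 29059 against 8999 CPM in YS-Ex) and more Tpsab1 (569 against 62.8 CPM, 296 against 79.5 CPM). Mrgprb2 was 54.9 against 1.80 CPM in Em-Ex and 42.5 against 9.54 CPM in YS-Ex, where the Mcpt1-high value came from 1 cell of 31. Mcpt4, by contrast, was not particular to members, since Mcpt1-high cells held 2193 and 5856 CPM in the 2 libraries against 2866 and 2988 CPM in members. Cma2 was also alike or higher there, 36.8 and 60.4 CPM against 32.5 and 44.4 CPM. Cd93 was seen in 67.7% of YS-Ex Mcpt1-high cells (48.6 to 83.3) against 78.0% of members (73.7 to 81.9), with overlapping intervals. Pmp22 was seen in 16.1% of them (5.45 to 33.7) against 32.7% (28.2 to 37.4), overlapping as well. In Em-Ex the shares were 35.8% against 66.2% for Cd93 and 5.69% against 31.7% for Pmp22. In YS-Ex the 31 Mcpt1-high cells also exceeded members in Stmn2 (76.3 against 49.2 CPM) and Ly6a (868 against 616 CPM), whereas in Em-Ex they held less of both (13.5 against 98.5 CPM and 207 against 335 CPM). Avil, which encodes the actin-binding protein advillin, ran the other way: 5.81 and 3.82 CPM in members, 29.4 and 19.1 CPM in the other candidates and 154 and 47.7 CPM in Mcpt1-high cells. The mucosal list held Gzmb as lower, with the exception in Em-Ex given above, none higher, of 3 measured, and Mcpt2 differed between libraries, with ratios of members to other candidates of 1.02 (0.963 to 1.09) and 1.96 (1.83 to 2.09).

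**Figure D4:**
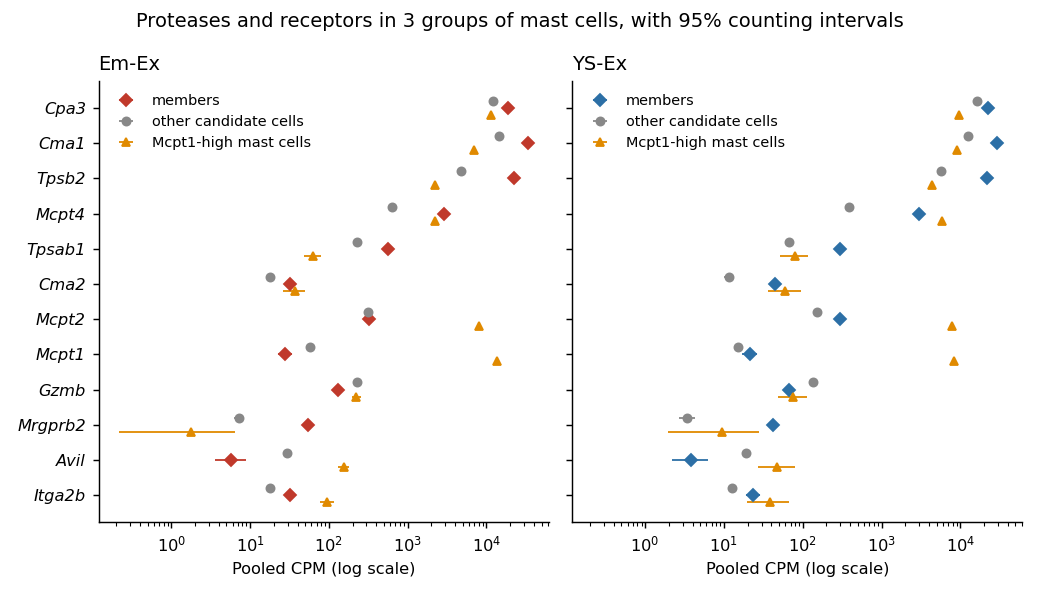
Pooled level in CPM (log axis) of 12 genes in members (diamonds), other candidates (circles) and Mcpt1-high mast cells (triangles) of Em-Ex, left, and YS-Ex, right, with 95% counting intervals. Mcpt2 separates the Mcpt1-high cells (7969 and 7809 CPM) from members (319 and 298 CPM), whereas Mcpt4 is found in both groups.

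Levels were also taken along the whole ranking. All candidates of both libraries together were cut into 5 equal parts by Tpsb2 and Mcpt4 UMIs per 10000, the members being the highest. Of the 132 higher genes, 93 were higher at each of the 4 steps in Em-Ex, 111 in YS-Ex and 84 in both. Of the 463 lower genes, 336 were lower at each step in Em-Ex, 275 in YS-Ex and 212 in both. The choice of these genes by their level in the highest part favours such an order, and for Tpsb2 and Mcpt4 the cut fixes it. Of all 6558 genes, 426 were higher at each step in Em-Ex, 526 in YS-Ex and 246 in both, and 1217, 928 and 518 were lower. Cma1 went from 7547 CPM in the lowest part through 13723, 17813 and 23397 to 33608 CPM in Em-Ex members, and from 5459 to 29059 CPM in YS-Ex. Mrgprb2 went through 0.594, 4.02, 9.43 and 20.2 to 54.9 CPM in Em-Ex, and through 0.191, 2.23, 3.70 and 7.81 to 42.5 CPM in YS-Ex. The last step was 2.72-fold in Em-Ex and 5.44-fold in YS-Ex for Mrgprb2, and 1.44-fold and 1.41-fold for Cma1. Kit went from 277 to 448 CPM in Em-Ex and from 732 to 1358 CPM in YS-Ex. Stmn2 in Em-Ex hardly differed between the fourth part (92.9 CPM) and members (98.5 CPM). Top2a was lower at each step in Em-Ex, from 128 to 27.5 CPM, and in YS-Ex went from 168 over 232 to 43.2 CPM. Median depth also differed between the parts, with 13273, 13483, 12175, 10192 and 9135 UMIs from the lowest part to members in Em-Ex, and 15141 in the lowest part and 9794 in members in YS-Ex, and its part in these gradients was not tested.

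**Figure D5:**
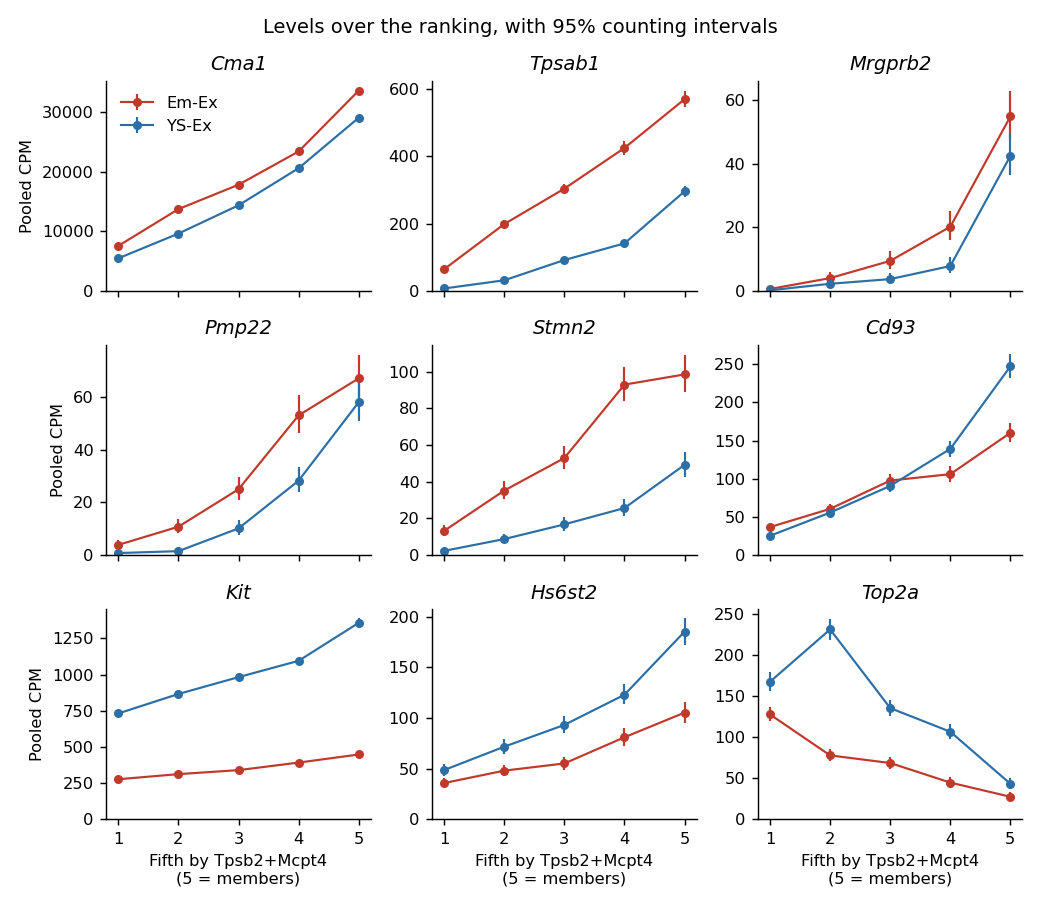
Pooled CPM of 9 genes over the 5 parts of the ranking (1 lowest, 5 members) in Em-Ex (red) and YS-Ex (blue), with 95% counting intervals. Cma1, Tpsab1, Mrgprb2, Pmp22, Stmn2, Cd93, Kit and Hs6st2 are higher at each step in both libraries and Top2a ends at its lowest level in members, 27.5 and 43.2 CPM.

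Members also varied among themselves. Cut into 3 equal groups by their score, they held 37.7, 54.9 and 73.2 CPM of Mrgprb2 in Em-Ex and 23.7, 42.9 and 67.7 CPM in YS-Ex from the lowest to the highest group. Ccl2 went through 30.2, 55.7 and 107 CPM in Em-Ex and 6.87, 9.86 and 36.0 CPM in YS-Ex. Hdc, which makes histamine, was nearly level in Em-Ex, between 3075 and 3244 CPM with overlapping intervals. In YS-Ex it went through 2671, 2638 and 3125 CPM, with the interval of the highest group (3024 to 3228) above the others. The members without a Mcpt4 UMI had medians of 10624 UMIs against 8709 in Em-Ex and 10006 against 9494 in YS-Ex for members with one. They held more Tpsb2 (23875 against 22305 CPM in Em-Ex, 23225 against 20729 CPM in YS-Ex), which the limit on the sum favours. In YS-Ex they held less Mcpt2, 16.2 CPM (10.2 to 24.6) against 433 CPM (409 to 458), less Stmn2, 11.1 against 67.4 CPM, and less Tpsab1, 164 against 359 CPM. In Em-Ex the corresponding values were 207 against 349 CPM for Mcpt2, 94.5 against 99.5 CPM for Stmn2 and 470 against 595 CPM for Tpsab1. Mrgprb2 was 47.9 against 56.8 CPM in Em-Ex, with overlapping intervals, and 27.3 (19.2 to 37.6) against 49.8 CPM (41.9 to 58.7) in YS-Ex.

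Members of the 2 explant types were set side by side, as pooled levels of 1 library each, in which tissue, culture and library cannot be told apart. Of the 6558 genes, 521 were at least 1.5-fold higher in Em-Ex than in YS-Ex members (7.94%) and 1533 at least 1.5-fold lower (23.4%). In the other candidates the same comparison gave 561 and 1460 genes, of which 302 and 1215 were among those of the members, so these genes differed between the libraries in both groups of cells. Kit was 0.330-fold in Em-Ex members (0.312 to 0.348) and 0.352-fold in the other candidates, and Ctsd was 1.88-fold and 1.76-fold. Of the proteases, Tpsb2 was 1.05-fold, which the common ranking favours, Cma1 1.16-fold, Cma2 0.731-fold and Cpa3 0.823-fold in Em-Ex members relative to YS-Ex members. Tpsab1 was 1.93-fold (1.79 to 2.07) in members and 3.38-fold in the other candidates. Stmn2 was 2.00-fold in members and 3.30-fold in the other candidates, Ccl2 3.98-fold and 2.71-fold, and Ly6a 0.543-fold and 0.665-fold. Mrgprb2 was 1.29-fold (1.05 to 1.59) in members and 2.12-fold in the other candidates.

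The genes whose member-to-other ratio differed most between the libraries were Hbb-bt, described above, Fcer1a, Nupr1, Mt2 and Uhrf1. Fcer1a, the IgE-binding chain of the receptor, stood at 12.4 against 15.8 CPM in Em-Ex (0.783-fold, 0.565 to 1.06) and at 50.4 against 12.8 CPM in YS-Ex (3.94-fold, 3.28 to 4.74). In YS-Ex its 211 UMIs came from 44 of 413 members, and 10 members held 61.6% of them, so few members carried this difference. Nupr1, a stress-response gene, was 1.06-fold in Em-Ex and 0.280-fold in YS-Ex. Mt2, a metallothionein, was 1.38-fold in Em-Ex, where a single member held 100 of its 255 UMIs, and 0.401-fold in YS-Ex. Without that member the Em-Ex ratio of Mt2 was 0.842-fold (0.707 to 0.998). Uhrf1, a DNA methylation maintenance gene of dividing cells, was lower in both (0.418-fold and 0.126-fold).

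The sexes were also counted, since Xist marks female and Y-linked genes male cells. Among members with a UMI of Xist or of a Y-linked gene (Ddx3y, Eif2s3y, Kdm5d or Uty), 16.1% of 353 in Em-Ex (12.5 to 20.4) and 36.4% of 365 in YS-Ex (31.5 to 41.6) had a Y-linked UMI and none of Xist. The other candidates gave 19.1% and 33.6%, within those intervals, and 2.55% and 3.84% of the informative members had UMIs of both kinds. At 3000 UMIs per cell the shares were 7.79% and 25.6% in members and 10.3% and 21.1% in the other candidates.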

How the data were processed

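Sorted cells of 1 Em-Ex and 1 YS-Ex library were analysed from the deposited table of UMI counts, 11691 genes by 6541 barcodes, which the authors made before deposit. The submitters' processing notes name bcl2fastq 2.19.1.403, Cell Ranger 2.0.1 and build mm10. Within a library each gene has UMIs in at least 30 barcodes or is listed at 0. Columns were mapped by their library prefix, and none was left over. Doublets were not removed.

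The members and all 30 gene lists were chosen with earlier results of these data known. Levels are pooled UMIs per 1000000 over the cells of a group and library (CPM) with exact Poisson 95% intervals. Ratios have conditional binomial intervals, and log2 ratios a prior of 0.5 UMI. Genes needed UMIs in both libraries and a mean of at least 10 CPM over candidates, and counted as higher or lower past 1.5-fold in each library. Shares have Clopper-Pearson intervals. Intervals and limits cover counting error only. With 1 library per condition no p-value was computed. The genes named were those of the rule, the given markers, the 15 highest and 15 lowest by the ratio nearer to 1 of the 2 libraries, the 5 differing most between libraries, the 4 of each list with the largest such value, the proteins of the sort, and genes whose role the text needed; a few that the rule names are not reported here. Levels were tested on simulated data. Python 3.11.15, numpy 2.4.6, scipy 1.17.1 and pandas 2.3.3 were used. Gene positions are from GENCODE M21.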

Additional observations from a re-analysis of the deposited data

Results flagged for a closer look

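The member-to-other ratio of 6 genes went in opposite directions in the 2 libraries, with both 95% counting intervals clear of 1 and at least 1 ratio past 1.5-fold. With 1 library per explant type the difference itself was not tested. Mt2, a metallothionein, was 1.38-fold in Em-Ex and 0.401-fold in YS-Ex, a difference of 1.78 in log2 ratio, and 1 Em-Ex member supplied 100 of the 255 member UMIs. Without that member the Em-Ex ratio of Mt2 was 0.842-fold (0.707 to 0.998), so the opposite direction rests on 1 cell. Hapln1, a hyaluronan link protein, was 0.801-fold and 2.11-fold (-1.40), with 74.0% of its 73 UMIs in 10 YS-Ex members. Spint1, a serine protease inhibitor, was 0.765-fold and 1.64-fold (-1.09). Usp18, an interferon-induced protease, was 0.650-fold and 1.32-fold (-1.01). Runx1, a blood cell transcription factor, was 1.21-fold and 0.622-fold (0.96), and stood at 62.8 CPM in Em-Ex members and 121 CPM in YS-Ex members against 51.9 and 195 CPM in the other candidates. Spns1, a lysosomal lipid transporter, was 1.51-fold and 0.820-fold (0.88).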

How the results depend on the processing

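Of 21 alternatives 20 were planned; centring the ratios, and every alternative for the comparison of Em-Ex with YS-Ex members, were added after the data were seen, as was leaving out, for Mt2 alone, the member with the most UMIs of it (log2 ratios of -0.24 and -1.40). No paired analysis was possible because each explant type has 1 library and no result comes from a test. With the top 10% or 30% as members, the Em-Ex share was 9.34% or 27.5% and the YS-Ex share 10.7% or 32.7%, by construction. The order of the libraries turned with Mcpt4 alone as ranking gene (22.5% and 17.3%) and among weakly cycling cells (20.4% and 19.7%). The 132 higher genes became 54 with Mcpt4 alone, 84 among weakly cycling cells, 326 with no minimum level, 48 with a minimum of 50 CPM and 208 after centring. The 463 lower genes became 174, 111, 908 and 144 under the first 4 of these and 222 among cells of middle depth. Choosing members on a random part of each cell's UMIs and taking levels from the rest left 108 of the 132 and 348 of the 463, thinning every cell to 3000 UMIs left 85 and 255, and Mcpt4 alone left 40 and 81. The Em-Ex to YS-Ex counts became 1100 higher and 3075 lower with no minimum, and 148 and 329 at 50 CPM. Among cells of middle depth the YS-Ex log2 ratio changed sign for Gm9758 (-0.16) and Ccl1 (-0.063). With Mcpt4 alone it did so for Itga2b (-0.16) and Bcl2 (-0.15) in Em-Ex, and for Il3ra (-0.13), Ccl1 (-0.43), Rrm2 (0.067), Hmmr (0.062) and Birc5 (0.014) in YS-Ex. Among weakly cycling cells, chosen by S and G2/M genes, it did so in Em-Ex for Shcbp1 (0.00085), Hells (0.45), Ccna2 (0.19), Gzmb (0.44), Rrm2 (0.41), Birc5 (0.23) and Stmn1 (0.014), and in YS-Ex for Plk1 (2.39), Casc5, Rrm2 and Hmmr (0.068 each), Ccna2 (0.92), Mcm7 (0.89), Birc5 (0.11) and Stmn1 (0.063). The values of Plk1, Casc5, Rrm2, Hmmr and Ccna2 in YS-Ex and of Shcbp1 and Ccna2 in Em-Ex among those cells rest on 0 to 4 member UMIs and the prior of 0.5, and give no direction. Apart from that construction, the cause of these changes was not tested. With 1 library per explant type, no value here includes the variation between cultures.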
